A study of Mus musculus with 18 samples.

Results

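The genes described here are 10 genes of the NF-kB pathway, out of 33440 genes measured. They were listed by name, with earlier results of these data known, and no threshold on a value was used. They are the subunits Nfkb1, Rela, Relb and Nfkb2, the co-regulator Bcl3, the inhibitors Nfkbia, Nfkbie and Tnfaip3, and the target genes Tnfaip2 and Sod2. All 10 were detected in all 18 libraries and passed the filter on low counts in every comparison. Levels are given as CPM, reads of a gene scaled to equal library totals, in each library. The study asked which genes lie downstream of the transcription factor IRF3 in adipocytes, and the comparisons show how this set of genes differed when IRF3 was active and when it was removed.

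NF-kB is a family of dimeric transcription factors that drive inflammatory genes. In resting cells the dimers are held in the cytosol by inhibitors of the IkB family, and IkB kinases release them after signals from receptors such as TLR4 or the TNF receptor. Several of the genes that NF-kB turns on encode its own subunits and inhibitors, so that their mRNAs serve as a readout of the pathway in adipose tissue and elsewhere.

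Adipocytes were differentiated in culture from the stromal-vascular fraction (SVF) of inguinal fat of IRF3-2D mice, aged 4 to 6 weeks, which carry a constitutively active Irf3 allele that is silent until Cre acts on it. On day 6 the cells were transduced with AAV-GFP (3 libraries, called WT) or with AAV-GFP-Cre (3 libraries, called FI3OE), and RNA was taken on day 8. WT cells thus hold the same allele, not recombined, and FI3OE cells differ from them by Cre as well as by active IRF3. In the second experiment, adipocyte RNA was isolated from eWAT by translating ribosome affinity purification (TRAP), a pulldown of tagged ribosomes, from FI3KO mice with Irf3 deleted in adipocytes (6 libraries) and from WT Ad-NuTRAP mice (6 libraries). Both genotypes were housed at thermoneutrality and ate HFD for 8 weeks, and the methods of the study describe male mice started on the diet at 8 weeks of age. They do so for a longer diet than the series gives, and whether it holds for the TRAP mice was not given in the sources used here. In the NuTRAP system the ribosome tag is itself turned on by Cre, so the controls also carry an adipocyte Cre. The labels call each library a biological replicate without naming the animal or culture, and the p-values measure the spread between these libraries only.

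Irf3 itself was higher in FI3OE, with 92.1, 100.3 and 90.8 CPM against 58.6, 56.9 and 56.8 CPM in WT (log2 fold change 0.73, adjusted p = 3.3e-07, edgeR). In TRAP RNA it lay between 12.4 and 18.8 CPM in FI3KO and between 17.2 and 23.2 CPM in WT, and these ranges overlapped (log2 fold change -0.35, adjusted p = 0.0198, edgeR). The Irf3 value was -0.45 in replicates 3 to 6 (adjusted p = 0.00893, edgeR), and in replicates 1 and 2 it was -0.18 (adjusted p = 0.452, edgeR), with a difference of -0.23 that did not pass. The transcripts of Irf3 were redistributed in FI3KO. Irf3-202 made up 40.0% of the Irf3 TPM in WT TRAP RNA and 0.00% in FI3KO, and the short Irf3-211 made up 2.58% and 66.0%. By library, Irf3-202 had 274.5 and 388.1 estimated reads in WT replicates 1 and 2, 163.6 to 325.2 in WT replicates 3 to 6 and 0 in all 6 FI3KO libraries, so all 12 TRAP libraries matched their labelled genotype in this transcript.

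The TRAP libraries of a genotype were not all alike. A chi-square per degree of freedom between 2 libraries, which is near 1 for sampling noise alone, was 110.7 to 267.9 between FI3KO replicates 1 and 2 and FI3KO replicates 3 to 6, against 16.9 to 86.3 within the latter. In WT it was 74.4 to 129.95 between the sets and 8.41 to 126.3 within replicates 3 to 6, where the highest value comes from replicates 3 and 5 and the other 5 pairs reached at most 53.8. WT replicates 1 and 2 were the closest pair of all, at 2.54, which is more than sampling noise but below the closest SVF pair (3.85). The labels do not say whether they come from 1 animal, and they were kept as separate samples. Every p-value for replicates 1 and 2, or for the difference between the sets, counts them as 2 samples. Counting them as 1 sample was tried with all 12 libraries only. The labels name no batch, so TRAP results are given with all 12 libraries and also with replicates 3 to 6 and with replicates 1 and 2. The sets are named by their replicate numbers only and were drawn with earlier results of these data known.

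The adipocyte markers summed to between 26210 and 32970 CPM in TRAP RNA and between 7808 and 8092 CPM in the SVF cultures, and none of the 12 was at 3 reads or fewer throughout a group. Single markers did differ between groups. Among these 12, 3 were higher and 5 lower in FI3OE, and 6 were higher and 1 lower in FI3KO. Over all genes, 20.2% were called higher and 16.8% lower in FI3OE, and 19.1% and 18.3% in FI3KO. The SVF cultures also held macrophage markers, with 18 genes summing to between 2523 and 2741 CPM, against 18.2 to 118.0 CPM in TRAP RNA. A level in the cultures is therefore a sum over cell types, and in either bulk sample fewer cells of a type and less RNA per cell cannot be told apart. Which cells gave rise to the NF-kB transcripts was not tested.

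Promoter sequences are shown because NF-kB dimers bind a known DNA sequence and the 10 genes were listed as genes of that pathway. The sequences were not related to any of the changes below. RefSeq promoter windows (build GRCm38.p6, 250 bases before to 50 bases after each annotated start) were at hand for 8 of the 10 genes, all but Nfkb1 and Relb. The NF-kB consensus, searched on both strands, was found in 7 of these 8 genes, the exception being Rela. Of all 27025 genes in the table, 9.55% hold it in a window, and 8.46% of all 32851 windows do. For each of the 7 genes the match nearest to an annotated start is printed on the gene's own strand, with the match in capitals and 10 bases on each side.
Nfkb2: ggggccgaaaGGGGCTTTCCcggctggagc
Bcl3: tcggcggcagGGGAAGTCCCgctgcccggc
Nfkbia: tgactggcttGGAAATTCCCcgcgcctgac
Nfkbie: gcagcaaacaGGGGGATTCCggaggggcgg
Tnfaip3: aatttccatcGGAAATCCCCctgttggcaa
Tnfaip2: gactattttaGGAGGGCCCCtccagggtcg
Sod2: cggggcggacGGGGTTCCCCgaggcggggc

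These windows lie at chr19:46304716-46304745 (Nfkb2), chr7:19822734-19822763 (Bcl3), chr12:55492657-55492686 (Nfkbia), chr17:45555584-45555613 (Nfkbie), chr10:19015403-19015432 (Tnfaip3), chr12:111442627-111442656 (Tnfaip2) and chr17:13007746-13007775 (Sod2). Counted from the start site, the first base of the match is at -11 for Nfkb2, 3 for Bcl3, -29 for Nfkbia, -106 for Nfkbie, -12 for Tnfaip3, -24 for Tnfaip2 and -83 for Sod2. For Nfkbia, Tnfaip3 and Tnfaip2 the consensus reads on the opposite strand. The shorter pattern GGNNTTTCC, which overlaps the consensus in part, occurred in 5 of the 8 genes and in 6.62% of all genes. A pattern bound by IRF proteins, GAAA followed by any 2 bases and a further GAAA, occurred in 0 of the 8 genes and in 3.99% of all genes. A match is a run of letters and no measure of binding, and the patterns were chosen after the sequences had been seen.

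In the WT groups, levels were compared between genes as TPM, which is per transcript length. Sod2, the mitochondrial manganese superoxide dismutase, was the highest of the 10 in both. It reached 243.6 ± 0.958 TPM (SD, n = 3) in SVF-derived adipocytes and 492.4 ± 132.9 TPM (SD, n = 6) in TRAP RNA. Most of this came from short transcripts that are annotated as noncoding, and the coding Sod2-201 supplied 9.78% of the Sod2 TPM in WT SVF cells and 13.3% in WT TRAP RNA. Nfkbie, an inhibitor of the IkB family, was the lowest, at 7.45 ± 0.247 TPM (SD, n = 3) and 3.64 ± 1.59 TPM (SD, n = 6).

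In SVF-derived adipocytes the order below Sod2 was Tnfaip2 (68.5 TPM), Rela (60.2 TPM), Nfkbia (56.2 TPM), Nfkb1 (52.8 TPM), Nfkb2 (41.0 TPM), Relb (39.3 TPM), Bcl3 (32.9 TPM), Tnfaip3 (13.2 TPM) and Nfkbie. Neighbours in this order overlapped between libraries for Rela and Nfkbia, for Nfkbia and Nfkb1, and for Nfkb2 and Relb. In TRAP RNA it was Rela (69.7 TPM), Nfkbia (64.7 TPM), Nfkb2 (44.3 TPM), Relb (43.6 TPM), Nfkb1 (25.5 TPM), Tnfaip3 (22.4 TPM), Tnfaip2 (17.1 TPM), Bcl3 (9.28 TPM) and Nfkbie. There the ranges of neighbours overlapped throughout, apart from Sod2 and Rela and from Relb and Nfkb1. WT replicates 1 and 2 lay below replicates 3 to 6 for 9 of the 10 genes, all but Nfkb1. The groups differ in fat depot, culture and RNA isolation and are set side by side without a test.

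**Figure D1:**
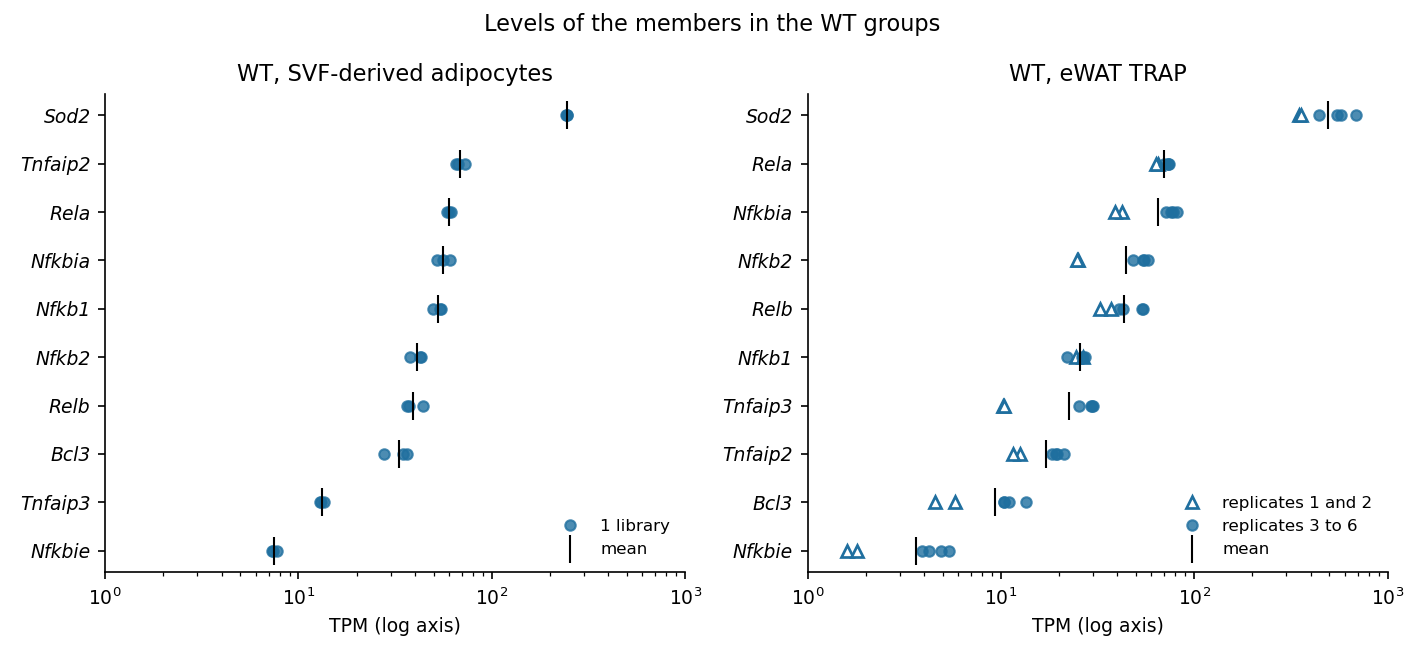
TPM of the 10 genes (log axis) in WT SVF-derived adipocytes (left, 3 libraries) and WT TRAP RNA (right, 6 libraries), ordered by the mean (bar). Points are single libraries, and open triangles are TRAP replicates 1 and 2. Sod2 leads in both groups, and in TRAP RNA the triangles of all genes but Nfkb1 lie below the other 4 libraries.

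Between FI3OE and WT, 5 of the 10 genes were called, in both directions. Relb, Nfkbie and Sod2 were lower in FI3OE and Tnfaip3 and Tnfaip2 were higher, with Relb changed the most, by 1.35-fold. Across all 16105 genes tested, 16.8% were called lower and 20.2% higher (adjusted p of at most 0.05, edgeR's quasi-likelihood test), so the count alone does not set the 10 genes apart. The median log2 fold change was -0.06 over the 10 genes and -0.0 over all genes. In 1 fit of all 18 libraries 0 of the 10 were called (adjusted p of Relb 0.071, edgeR), and 0 reached a log2 fold change of 1. With WT replicate 2 left out, 3 of the 5 genes were still called, Relb, Tnfaip3 and Sod2.

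Of the subunits, Relb (chr7:19606217-19629438, GRCm38) fell. It encodes the subunit that pairs with the processed product of Nfkb2 in the noncanonical pathway. Relb was at 20.3, 18.6 and 20.02 CPM in FI3OE and at 25.9, 28.5 and 26.0 CPM in WT. The groups did not overlap, as for 25.7% of all genes tested that were lower in FI3OE and 24.1% that were higher (log2 fold change -0.43, SE 0.0608, adjusted p = 1.85e-04, edgeR).

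Nfkb2 (chr19:46304320-46312385), the partner of Relb, was at 40.2, 36.6 and 42.4 CPM in FI3OE and at 40.9, 47.2 and 47.2 CPM in WT. The groups overlapped, and the difference did not pass the threshold (log2 fold change -0.16, 95% interval -0.30 to -0.03, adjusted p = 0.0884, edgeR). With WT replicate 1 left out it did (log2 fold change -0.23, adjusted p = 0.0178, edgeR).

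Nfkb1 (chr3:135584655-135691547) and Rela (chr19:5637483-5648130) encode the components of the classical dimer. Nfkb1 had 82.4, 77.9 and 80.6 CPM in FI3OE and 80.3, 83.0 and 78.0 CPM in WT. Rela had 57.7, 62.8 and 63.3 CPM in FI3OE and 61.1, 60.8 and 61.5 CPM in WT. The libraries of both groups were interleaved for both genes. Their log2 fold changes were 0.01 (95% interval -0.06 to 0.09) for Nfkb1 and 0.02 (95% interval -0.07 to 0.11) for Rela, and each of them turned slightly negative in 2 of the alternative analyses.

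Bcl3 (chr7:19808462-19822770), an atypical IkB protein that acts in the nucleus, was at 12.2, 13.9 and 13.4 CPM in FI3OE and at 12.0, 15.3 and 15.2 CPM in WT. These values overlapped as well (log2 fold change -0.08, 95% interval -0.29 to 0.12).

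The inhibitors did not move as 1 group. Nfkbia (chr12:55489410-55492647), which encodes IkB alpha, the inhibitor that NF-kB induces most directly, was at 22.5, 23.8 and 22.5 CPM in FI3OE and at 23.5, 24.2 and 23.6 CPM in WT (log2 fold change -0.03, 95% interval -0.14 to 0.07). Nfkbie (chr17:45555703-45563169), for IkB epsilon, had 6.38, 5.46 and 6.04 CPM in FI3OE against 7.65, 8.03 and 7.64 CPM in WT (log2 fold change -0.37, SE 0.103, adjusted p = 0.0158, edgeR). So Nfkbie was lower in each FI3OE library than in any WT library, while Nfkbia overlapped. Tnfaip3 (chr10:19000910-19015657), a ubiquitin-editing enzyme that shuts down signals from the TNF receptor, went the other way, with 30.9, 31.9 and 28.0 CPM in FI3OE and 24.9, 25.0 and 24.2 CPM in WT (log2 fold change 0.31, SE 0.0594, adjusted p = 0.00179, edgeR).

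The targets diverged too. Tnfaip2 (chr12:111442469-111455018), named for its induction by TNF, was at 89.3, 90.8 and 99.7 CPM in FI3OE and at 82.8, 82.1 and 87.1 CPM in WT (log2 fold change 0.17, SE 0.0485, adjusted p = 0.0172, edgeR). It was higher in all FI3OE libraries, but the call was lost when any of 3 single libraries was left out (FI3OE replicate 3, WT replicate 1 or WT replicate 2, adjusted p = 0.0649 to 0.0682). Sod2 (chr17:13006846-13040063) was at 142.3, 141.7 and 156.8 CPM in FI3OE and at 169.3, 172.6 and 173.6 CPM in WT (log2 fold change -0.21, SE 0.0457, adjusted p = 0.00406, edgeR). Its long coding transcript Sod2-201 averaged 17.1 TPM in FI3OE and 23.8 TPM in WT, whereas the short Sod2-204 averaged 117.9 and 113.1 TPM. With an offset for transcript length the Sod2 fold change was -0.03 (adjusted p = 0.730, edgeR).

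**Figure D2:**
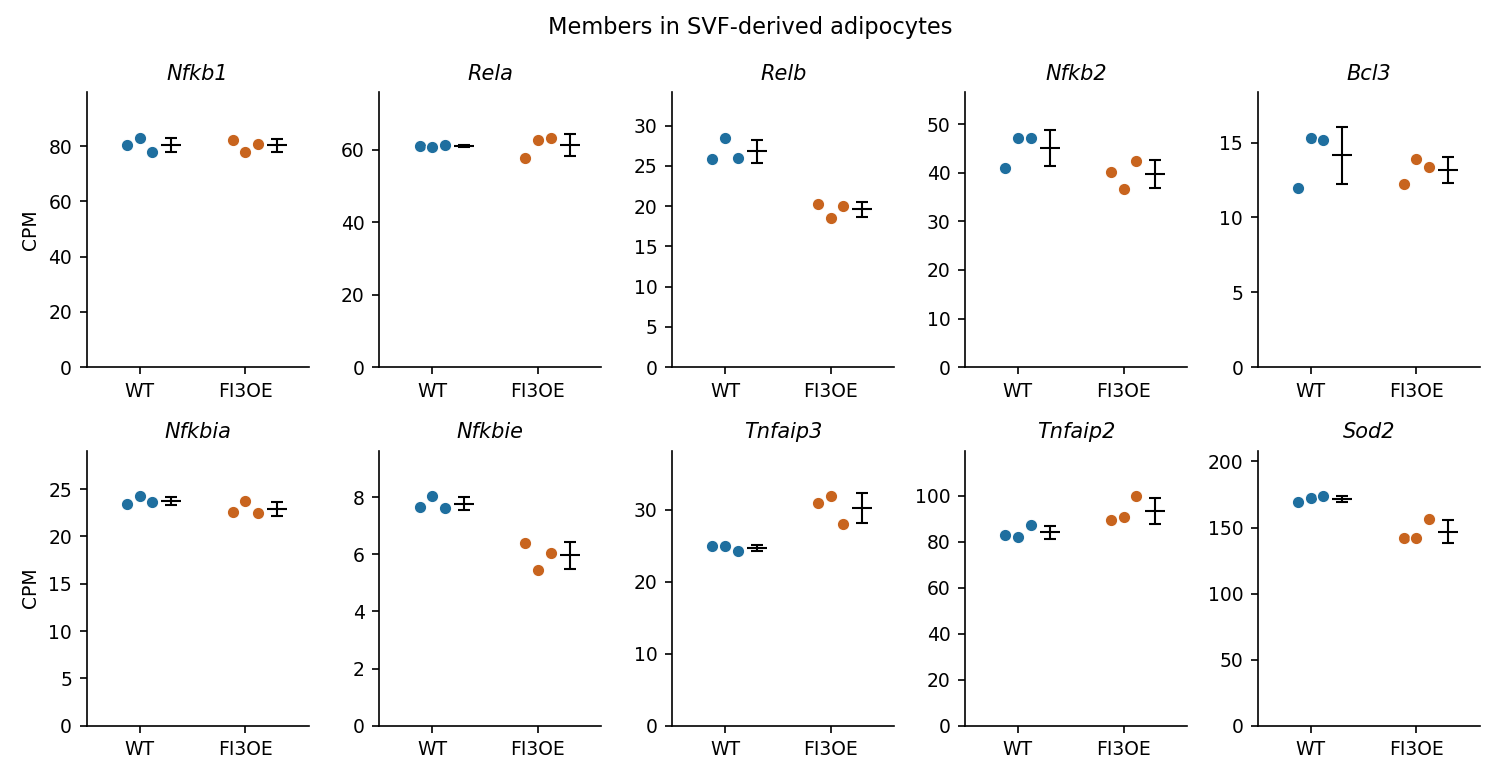
CPM of the 10 genes in SVF-derived adipocytes, 3 libraries per group as points, with mean ± SD beside them and each axis from 0. Relb, Nfkbie and Sod2 lie lower in FI3OE than in any WT library, Tnfaip3 and Tnfaip2 lie higher, and the other 5 genes overlap, where 25.7% of all genes lie lower and 24.1% higher without overlap.

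The wider pathway was read from lists of other NF-kB genes. Of 9 further subunits and inhibitors, 2 were higher in FI3OE (Nfkbiz among them, log2 fold change 0.20) and 1 was lower (Tnip1, log2 fold change -0.27). Of 28 receptors, adaptors and kinases upstream, 7 were higher and 4 lower, both counts near the shares over all genes (20.2% and 16.8%). The IkB kinase genes Chuk, Ikbkb and Ikbkg had log2 fold changes of 0.01, 0.04 and 0.02, and none of these passed the test (adjusted p from 0.509 to 0.921, edgeR).

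Of 17 other target genes tested, 10 were higher and 0 lower, with a median log2 fold change of 0.44. Ccl2, the monocyte chemokine, rose from 16.3 to 19.8 CPM in WT to 47.9 to 52.2 CPM in FI3OE (log2 fold change 1.51, adjusted p = 2.09e-08, edgeR), and Il6 had a log2 fold change of 1.08 (adjusted p = 8.2e-04, edgeR). Tnf did not pass (log2 fold change -0.21, adjusted p = 0.377, edgeR), nor did Icam1 (-0.0 on the log2 scale, adjusted p = 0.999, edgeR). Among the 18 macrophage markers of the same cultures, 4 were higher in FI3OE and 3 lower, and their sum ranged from 2568 to 2741 CPM in WT and from 2523 to 2550 CPM in FI3OE. Of 8 progenitor markers, 2 were higher in FI3OE and 1 lower. Ly6a, one of them, rose from 376.4 to 401.7 CPM in WT to 1327 to 1454 CPM in FI3OE, and the other 7 summed to 1138 to 1208 CPM in WT and 1110 to 1192 CPM in FI3OE. The part of these cells in the FI3OE results was not tested.

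In TRAP RNA from FI3KO adipocytes, 6 of the 10 genes fell and 0 rose. Bcl3, Tnfaip2 and Nfkbie fell the most (log2 fold changes -1.93, -1.46 and -1.42), followed by Nfkb2 (-0.88), Sod2 (-0.76) and Relb (-0.43). Of the 13624 genes tested, 18.3% were called lower and 19.1% higher. Bcl3, Nfkbie and Tnfaip2 also passed the study's fold cutoff of 1 on the log2 scale, past which 4.87% of all genes were lower. The median log2 fold change was -0.60 over the 10 genes and 0.02 over all genes.

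Most of the spread was in the WT group. Over the 10 genes, the mean level scaled per gene was between 1.04 and 1.55 SD units in WT replicates 3 to 6 and at -0.84 and -0.72 in WT replicates 1 and 2. In FI3KO it was -1.08 and -0.76 in replicates 1 and 2 and -0.64 to -0.17 in replicates 3 to 6. In this mean, WT replicates 1 and 2 thus sat among the FI3KO libraries, but not for every single gene. They lay above all FI3KO libraries for Bcl3, Tnfaip2, Sod2 and, narrowly, Nfkb2, and below all of them for Tnfaip3 and Rela.

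With replicates 3 to 6 alone, 8 of the 10 genes were lower in FI3KO, where 24.8% of 13692 genes were called lower and 25.7% higher. With replicates 1 and 2 alone, 0 of the 10 were called lower and 1 was called higher, Tnfaip3, where 1.98% of 14040 genes were called lower and 1.58% higher. At an unadjusted p of at most 0.05 edgeR put 3 of the 10 lower in replicates 1 and 2 (Bcl3, Tnfaip2 and Sod2) and 2 higher (Rela and Tnfaip3), where 14.2% of all genes were lower and 14.9% higher. The knockout effect differed between the sets for 6 genes, always toward a lower value in replicates 3 to 6 (Nfkb2, Relb, Nfkbie, Tnfaip3, Tnfaip2 and Sod2, interaction term of edgeR), and 11.9% of 14978 genes were called in that direction and 12.9% in the other.

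**Figure D3:**
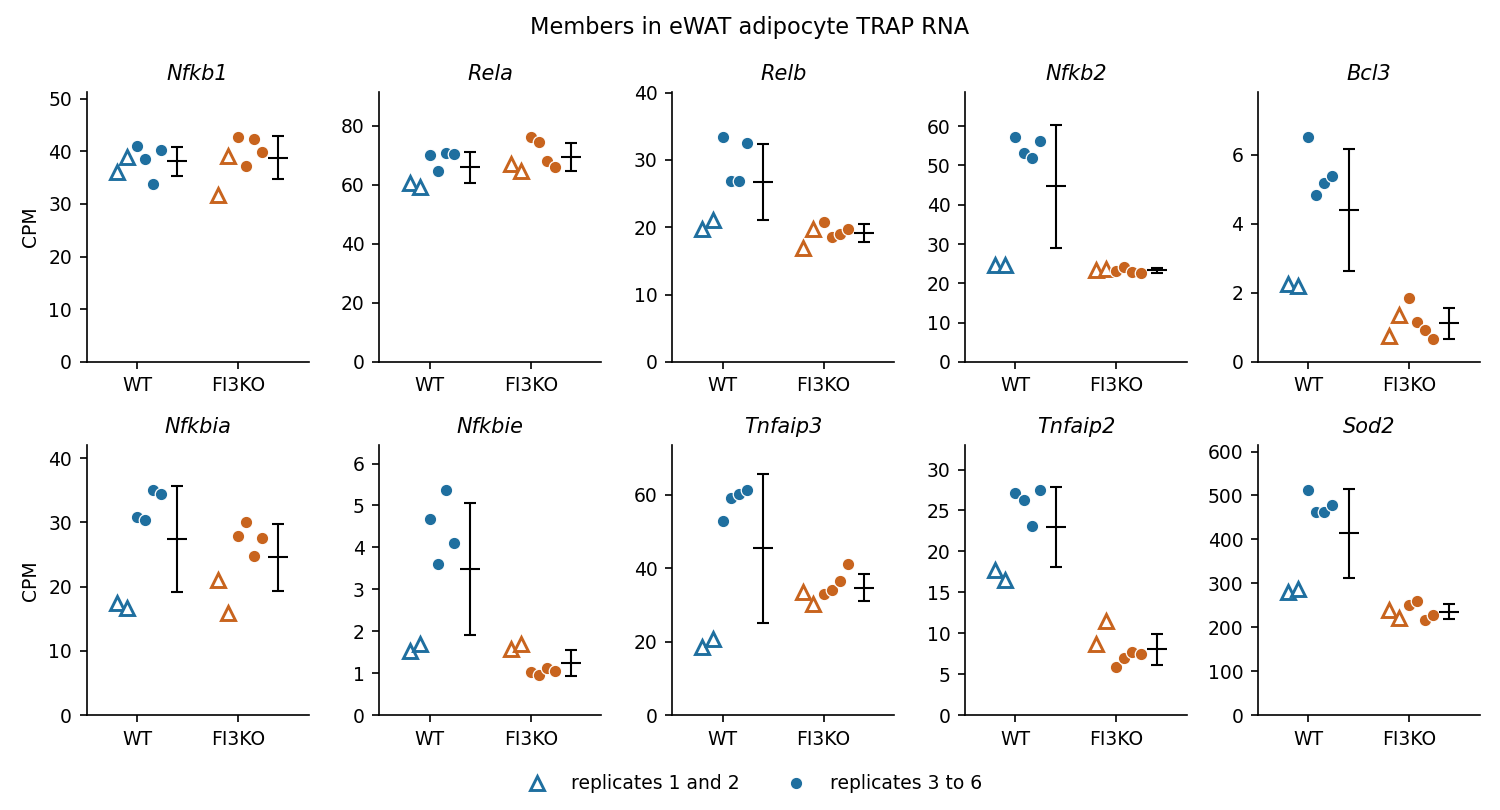
CPM of the 10 genes in TRAP RNA of WT and FI3KO adipocytes, 6 libraries per group with mean ± SD beside them and each axis from 0. Open triangles are replicates 1 and 2 and filled circles replicates 3 to 6. For Nfkb2, WT replicates 1 and 2 (24.8 and 24.6 CPM) lie at the level of all FI3KO libraries, and WT replicates 3 to 6 lie above 50.

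Nfkb2 had the smallest p of the 10 genes for the difference between the sets, though not the largest difference. Its level was 24.8 and 24.6 CPM in WT replicates 1 and 2 and 57.2, 53.2, 52.0 and 56.2 CPM in WT replicates 3 to 6. In FI3KO all 6 libraries lay between 22.6 and 24.1 CPM (median 23.2). It was therefore 2.28-fold lower in FI3KO in replicates 3 to 6 (log2 fold change -1.19, SE 0.0492, adjusted p = 1.82e-07, edgeR) and differed by -0.01 on the log2 scale in replicates 1 and 2 (95% interval -0.18 to 0.15). The difference between these effects was -1.14 (adjusted p = 8.89e-06, edgeR). The reads carry no strand, and Psd, which overlaps Nfkb2 on the opposite strand, averaged 1.98 CPM in WT and 0.608 CPM in FI3KO. AC114539.1, which overlaps Nfkb2 on that strand as well, averaged 1.91 CPM in WT and 2.31 CPM in FI3KO.

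Relb followed its partner at a smaller size. WT replicates 1 and 2 had 19.7 and 21.0 CPM and WT replicates 3 to 6 had 33.4, 26.9, 26.9 and 32.6 CPM, against 16.9 to 20.8 CPM in FI3KO (median 19.3). The fold change was -0.57 on the log2 scale in replicates 3 to 6 (adjusted p = 2.07e-04, edgeR) and -0.09 in replicates 1 and 2 (95% interval -0.30 to 0.11). The difference of these, -0.43 (adjusted p = 0.0371, edgeR), lost its call when any of 7 single libraries was left out (FI3KO replicate 2, 4 or 5, or WT replicate 1, 2, 3 or 6, adjusted p = 0.0501 to 0.161).

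Nfkb1 and Rela behaved otherwise. Nfkb1 lay between 33.7 and 41.1 CPM in WT (median 38.8) and between 31.6 and 42.7 CPM in FI3KO (median 39.5). Rela lay between 59.2 and 70.8 CPM in WT (median 67.4) and between 64.6 and 76.3 CPM in FI3KO (median 67.5). For Nfkb1 and Rela the genotypes overlapped, with log2 fold changes of 0.07 (95% interval -0.06 to 0.20) for Nfkb1 and 0.12 (95% interval 0.01 to 0.23, adjusted p = 0.0967, edgeR) for Rela. In replicates 3 to 6 they were 0.12 for Nfkb1 and 0.09 for Rela, and in replicates 1 and 2 they were -0.02 and 0.20, with no call in either set.

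Bcl3 was the gene with the largest fold change over all libraries and one of the lowest in level. It had 2.26 and 2.19 CPM in WT replicates 1 and 2, 6.51, 4.84, 5.17 and 5.38 CPM in WT replicates 3 to 6, and between 0.672 and 1.85 CPM in FI3KO (median 1.03), where 19 to 50 reads stood behind each value. No FI3KO library reached the lowest WT library. The log2 fold change was -2.23 in replicates 3 to 6 (adjusted p = 5.94e-05, edgeR) and -1.0 in replicates 1 and 2 (adjusted p = 0.115, edgeR), and the difference of these, -1.18, did not pass the threshold (95% interval -2.07 to -0.30, adjusted p = 0.0727, edgeR). It was -0.71 without FI3KO replicate 2, which left 1 library in that set, and it passed without FI3KO replicate 3 (-1.48, adjusted p = 0.0127, edgeR).

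Among the inhibitors, Nfkbie had the largest difference between the sets. WT replicates 1 and 2 had 1.53 and 1.69 CPM, within the FI3KO range of 0.959 to 1.71 CPM (median 1.10), while WT replicates 3 to 6 had 4.67, 3.60, 5.36 and 4.11 CPM. In replicates 3 to 6 it was 4.08-fold lower in FI3KO (log2 fold change -2.03, adjusted p = 9.12e-06, edgeR), and in replicates 1 and 2 its log2 fold change was 0.09 (95% interval -0.36 to 0.54). The difference was -2.08 (adjusted p = 2.72e-04, edgeR).

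Tnfaip3 changed in opposite directions. FI3KO libraries lay between 30.2 and 41.2 CPM (median 33.8), above WT replicates 1 and 2 (18.6 and 20.6 CPM) and below WT replicates 3 to 6 (52.8, 59.0, 60.3 and 61.2 CPM). It was 1.69-fold higher in FI3KO in replicates 1 and 2 (log2 fold change 0.76, adjusted p = 0.0347, edgeR) and 1.56-fold lower in replicates 3 to 6 (-0.64, adjusted p = 2.11e-04, edgeR). The difference of -1.36 passed (adjusted p = 1.22e-04, edgeR), and with all 12 libraries the fold change of -0.33 did not (adjusted p = 0.353, edgeR).

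Nfkbia split by replicate set more than by genotype. Replicates 1 and 2 had 17.5 and 16.6 CPM in WT and 21.1 and 15.98 CPM in FI3KO. Replicates 3 to 6 had 30.4 to 35.0 CPM in WT and 24.7 to 30.1 CPM in FI3KO. It was lower in FI3KO in replicates 3 to 6 (log2 fold change -0.20, adjusted p = 0.0485, edgeR) and had a log2 fold change of 0.18 in replicates 1 and 2 (95% interval -0.14 to 0.51), with no call over all libraries (-0.11, adjusted p = 0.684, edgeR). The difference between the sets, -0.34, did not pass (adjusted p = 0.143, edgeR). It was -0.10 without FI3KO replicate 1 and -0.55 without FI3KO replicate 2, and each of these fits left 1 FI3KO library in that set.

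The targets were lower in FI3KO. Tnfaip2 had 17.7 and 16.5 CPM in WT replicates 1 and 2, 27.1, 26.3, 23.1 and 27.5 CPM in WT replicates 3 to 6 and 5.92 to 11.5 CPM in FI3KO (median 7.55). Sod2 had 280.8 and 287.0 CPM in WT replicates 1 and 2, 511.9, 462.0, 462.2 and 478.1 CPM in WT replicates 3 to 6 and 216.2 to 260.9 CPM in FI3KO (median 233.6). Each FI3KO library was thus below each WT library for both genes, as it was for Bcl3 and, narrowly, for Nfkb2. For Nfkb2 the highest FI3KO library had 24.1 CPM and the lowest WT library 24.6 CPM, and the fitted log2 fold change in replicates 1 and 2 was -0.01. Of all genes tested, 9.84% were lower in FI3KO without overlap and 5.39% higher.

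In replicates 3 to 6 Tnfaip2 was 3.59-fold lower (log2 fold change -1.84, adjusted p = 5.82e-07, edgeR) and Sod2 1.94-fold lower (-0.96, adjusted p = 1.81e-06, edgeR). In replicates 1 and 2 the log2 fold changes were -0.69 (95% interval -0.98 to -0.41, adjusted p = 0.0601, edgeR) for Tnfaip2 and -0.24 (95% interval -0.40 to -0.09, adjusted p = 0.126, edgeR) for Sod2. The effects differed between the sets by -1.11 for Tnfaip2 (adjusted p = 0.00113, edgeR) and by -0.67 for Sod2 (adjusted p = 8.98e-04, edgeR). The coding transcript Sod2-201 averaged 65.6 TPM in WT and 37.5 TPM in FI3KO over all libraries.

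**Figure D4:**
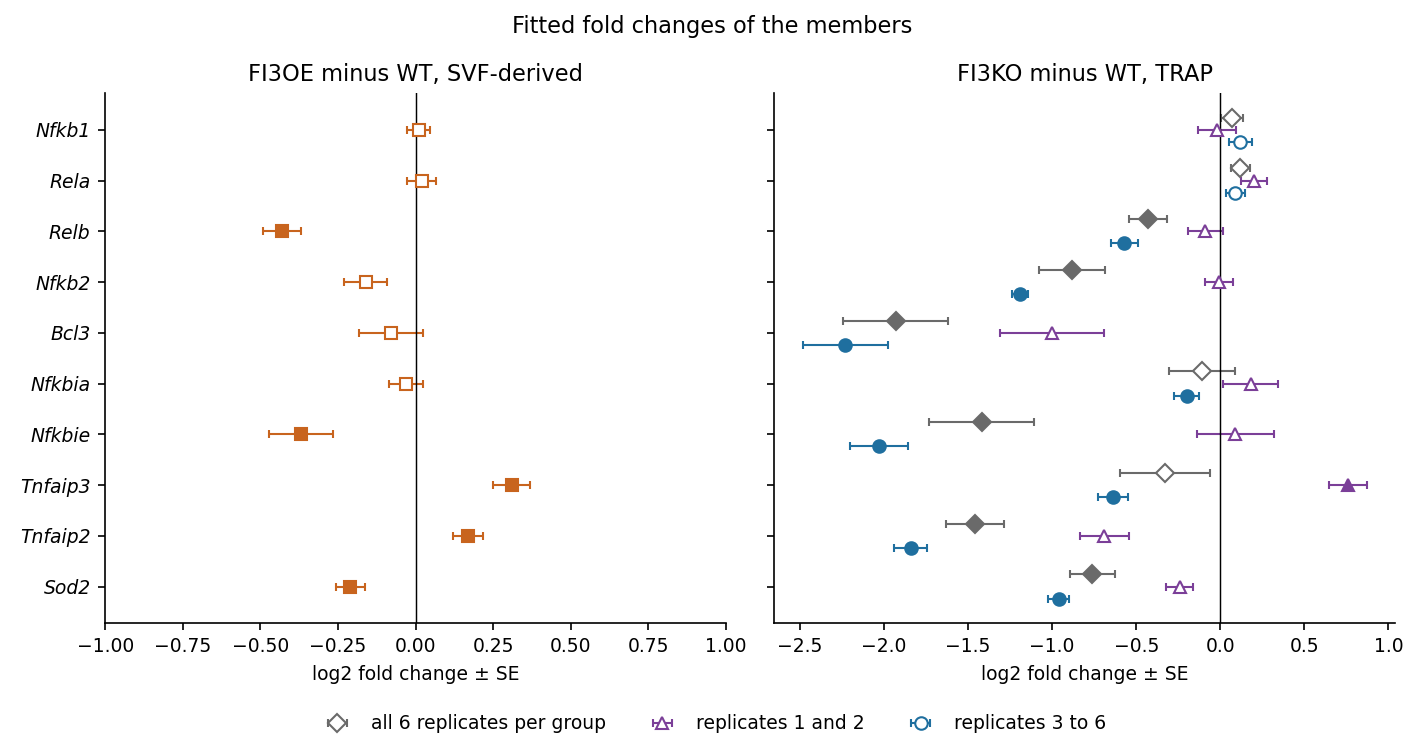
Log2 fold changes ± SE of the 10 genes fitted by edgeR, for FI3OE minus WT in SVF-derived adipocytes (left, axis from -1 to 1) and FI3KO minus WT in TRAP RNA (right) with all libraries (diamonds), replicates 1 and 2 (triangles) and replicates 3 to 6 (circles). Filled markers have an adjusted p of at most 0.05. In replicates 3 to 6 the markers of all genes but Nfkb1 and Rela lie below 0, and in replicates 1 and 2 Tnfaip3 lies above 0 (0.76).

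Relb, Nfkbie and Sod2 were lower both in FI3OE cultures (-0.43, -0.37 and -0.21 on the log2 scale) and in FI3KO TRAP RNA (-0.43, -1.42 and -0.76). With the offset for transcript length, Sod2 was not called in FI3OE (-0.03, adjusted p = 0.730, edgeR). Tnfaip2 was higher in FI3OE (0.17) and lower in FI3KO (-1.46). Nfkb2 and Bcl3 fell in FI3KO without a call in FI3OE, and Nfkb1 and Rela passed in neither experiment. These contrasts come from different depots and conditions, and the difference between them was not tested.

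Macrophage markers moved with the same libraries. The 18 genes summed to 44.2 and 43.4 CPM in WT replicates 1 and 2, 81.6 to 118.0 CPM in WT replicates 3 to 6, 39.2 and 51.1 CPM in FI3KO replicates 1 and 2 and 18.2 to 20.9 CPM in FI3KO replicates 3 to 6. In replicates 3 to 6, 16 of 17 tested markers were lower in FI3KO (median log2 fold change -2.49), where 24.8% of all genes were called lower. The exception was Cd14, which was higher. Cd68 and Tyrobp, among the 16, had at most 0.224 and 0.099 CPM in these FI3KO libraries. They passed the filter there only through WT, so their calls carry no weight, and they were not tested in replicates 1 and 2. In replicates 1 and 2 edgeR called 0 of 15 (median 0.31), and at an unadjusted p of at most 0.05 Csf1r and Mrc1 were higher and Cd74 lower.

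Adipocyte markers also moved in these libraries. Over all genes, 25.7% were called higher in FI3KO and 24.8% lower in replicates 3 to 6. In replicates 3 to 6, 8 of 12 were higher in FI3KO and 1 lower, in replicates 1 and 2, 0 were higher and 1 lower, and the difference between the sets was called for 6. Adipoq had 1614 to 2025 CPM in WT replicates 3 to 6 and 2682 to 3835 CPM in FI3KO replicates 3 to 6, Cfd had 317.5 to 511.9 and 2376 to 3489 CPM, and Lep had 8792 to 13300 and 2401 to 3074 CPM.

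In FI3KO the macrophage marker sum was higher in replicates 1 and 2 than in any of replicates 3 to 6, and the mean scaled level of the 10 genes was lower. Nfkbie and Tnfaip2 were exceptions to that mean and went with the marker sum. They had 1.58 and 1.71 CPM (Nfkbie) and 8.67 and 11.5 CPM (Tnfaip2) in FI3KO replicates 1 and 2. In FI3KO replicates 3 to 6 they had 0.959 to 1.14 CPM and 5.92 to 7.68 CPM. Fcgr1 was at 3 reads or fewer in every FI3KO library. Of the endothelial markers, 3 of 8 were called higher in FI3KO in replicates 1 and 2 and 1 of 7 in replicates 3 to 6. In replicates 1 and 2 they had sums of 67.8 and 105.3 CPM in FI3KO and 36.5 and 38.2 CPM in WT. The test of the difference between the sets called 2 of 8, toward a lower value in replicates 3 to 6. For macrophage markers it called 16 of 17 in that direction, Cd68 and Tyrobp among them, and 1 in the other, and for progenitor markers 6 of 8 and 1. Of the mesothelial markers, edgeR called 1 of 8 lower in replicates 3 to 6, 0 of 7 in replicates 1 and 2, and 1 of 8 for the difference. Progenitor markers summed to 66.1 to 74.9 CPM in WT and 77.7 to 103.4 CPM in FI3KO, while in replicates 3 to 6 edgeR called 6 of 7 tested lower and 1 higher. Much of that sum is Dcn, at 17.6 to 42.3 CPM in WT and 43.6 to 82.7 CPM in FI3KO. T and B cell markers summed to at most 1.11 CPM in any TRAP library. The part of any of these cells in the NF-kB results was not tested.

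**Figure D5:**
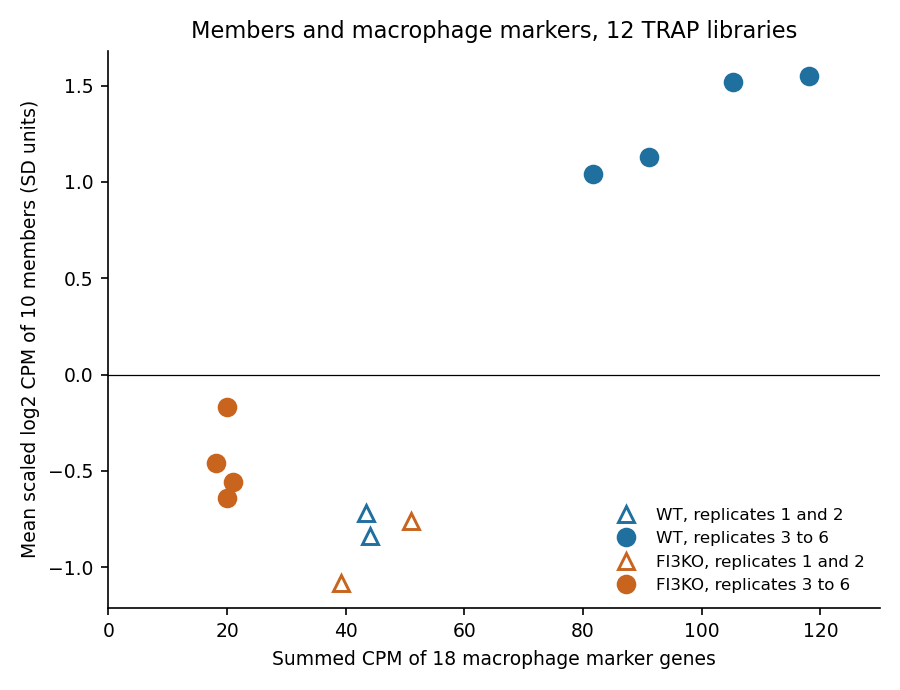
Mean scaled log2 CPM of the 10 genes (SD units, log2 of CPM with 0.1 added) against the summed CPM of 18 macrophage markers in the 12 TRAP libraries. WT replicates 3 to 6 stand alone at the upper right, and the other 8 libraries lie between -1.08 and -0.17 over marker sums of 18.2 to 51.1 CPM.

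Other NF-kB genes in TRAP RNA were counted in the same way. Over all genes tested, 18.3% were called lower and 19.1% higher with all libraries, and 24.8% and 25.7% in replicates 3 to 6. In replicates 1 and 2 these shares were 1.98% and 1.58%, and for the difference between the sets 11.9% and 12.9%. Of 8 further subunits and inhibitors tested, 3 were lower in FI3KO and 0 higher: Rel (log2 fold change -0.54, adjusted p = 0.0117, edgeR), Nfkbib (-0.54, adjusted p = 0.00253, edgeR) and Tnip1 (-0.86, adjusted p = 0.00148, edgeR). Of the 8, 5 were lower in replicates 3 to 6, and edgeR called 0 in replicates 1 and 2, where at an unadjusted p of at most 0.05 Rel and Tnip1 were lower and Nfkbiz higher. Nfkbib was at -0.69 on the log2 scale in replicates 3 to 6 and at -0.20 with the other 2 replicates (difference -0.45, adjusted p = 0.0282, edgeR). For Tnip1 it was -1.06 and -0.36 (difference -0.66, adjusted p = 0.0796, edgeR). Nfkbiz was lower in replicates 3 to 6 (-0.7, adjusted p = 0.0218, edgeR) and at 0.72 in replicates 1 and 2 (difference -1.38, adjusted p = 0.023, edgeR). The difference between the sets was called for 3 of the 8, Nfkbib and Nfkbiz among them, toward a lower value in replicates 3 to 6. Rel, the remaining transactivating subunit, had 8.80 and 8.81 CPM in WT replicates 1 and 2, 11.7 to 13.01 CPM in WT replicates 3 to 6 and 5.38 to 9.55 CPM in FI3KO. Replicates 3 to 6 gave a knockout effect of -0.56 for Rel and replicates 1 and 2 gave -0.51, where it did not pass (adjusted p = 0.112, edgeR), and a difference between the sets was not detected (95% interval of the difference -0.40 to 0.39).

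Of 27 upstream genes tested, 11 were lower in FI3KO and 4 higher, where 18.3% of all genes were called lower and 19.1% higher. With replicates 3 to 6 alone, 12 were lower and 5 higher, and in replicates 1 and 2, 1 was lower (Tlr4, -0.40) and 0 higher. Map3k14, the kinase that starts the noncanonical pathway, was lower (log2 fold change -1.43, adjusted p = 0.00123, edgeR), with 5.46 CPM on average in WT replicates 1 and 2, 11.4 CPM in WT replicates 3 to 6, and 2.23 to 4.51 CPM in FI3KO. Replicates 3 to 6 gave -1.86 for it on the log2 scale, and replicates 1 and 2 gave -0.38 (difference -1.44, adjusted p = 0.0112, edgeR). Among genes of the TBK1 complex, which phosphorylates IRF3, Tank (-0.79), Ikbke (-0.74) and Tbk1 (-0.30) were lower (adjusted p = 0.00107, 0.0155 and 0.00717, edgeR). Their values were -0.89, -1.13 and -0.38 in replicates 3 to 6, and in replicates 1 and 2 they were -0.54, -0.0 and -0.11, with no call. The difference between the sets passed for Ikbke (-1.08, adjusted p = 0.0295, edgeR) and not for Tank or Tbk1. The classical kinase gene Ikbkb was higher (0.33, adjusted p = 0.00513, edgeR), at 0.44 in replicates 3 to 6 and 0.15 in replicates 1 and 2, where it did not pass. Chuk (0.16), Ikbkg (-0.15), Cyld (0.11), Tnfrsf1a (-0.15) and Tlr4 (-0.15) did not pass over all libraries. Of these, Ikbkg (-0.23, adjusted p = 0.013, edgeR) and Tnfrsf1a (-0.2, adjusted p = 0.0143, edgeR) were lower in replicates 3 to 6. In replicates 1 and 2 they were -0.0 and -0.03, with no call.

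Of 13 other targets tested, 8 were lower and 2 higher, with a median log2 fold change of -0.82. Taken alone, replicates 3 to 6 had 9 lower and 2 higher (median -1.9), and in replicates 1 and 2, 2 were lower and 0 higher (median -0.12). The difference between the sets was called for 9 toward a lower value in replicates 3 to 6 and for 1 toward a higher one. Ccl2 was at 6.71 and 5.98 CPM in WT replicates 1 and 2, at 33.0 to 41.8 CPM in WT replicates 3 to 6 and at 0.555 to 2.45 CPM in FI3KO (log2 fold change -4.14, adjusted p = 2.38e-04, edgeR). It passed in replicates 3 to 6 (-5.07, adjusted p = 1.76e-07, edgeR) and in replicates 1 and 2 (-1.38, adjusted p = 0.0212, edgeR). Birc3 was lower too (-0.66, adjusted p = 0.006, edgeR), with -0.89 in replicates 3 to 6 and -0.12 in replicates 1 and 2 (difference -0.73, adjusted p = 0.039, edgeR), and Traf1 (-0.66) and Icam1 (-0.12) did not pass over all libraries. Both were lower in replicates 3 to 6 (Traf1 -1.90, adjusted p = 0.00274, and Icam1 -0.94, adjusted p = 0.0273, edgeR), and in replicates 1 and 2 their values were 0.78 and 1.16, with no call. Traf1 was near the floor in replicates 3 to 6, at 0.124 to 0.352 CPM in FI3KO and 0.491 to 1.21 CPM in WT, and passed the filter there through WT. Il6 was at 3 reads or fewer in all 12 TRAP libraries, and Tnf in all FI3KO libraries.

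Over the 12 TRAP libraries, the 5 genes outside all lists with the profile nearest to the mean of the 10 genes, among 10944 compared, were Gm4316, Sec61a1, Glul, Psmb10 and C2cd2. Their root-mean-square distances on scaled log2 CPM were 0.148, 0.193, 0.224, 0.237 and 0.237 SD units. Of the 10 genes themselves Nfkb2 (0.244), Relb (0.25) and Sod2 (0.331) were nearest to that mean and Rela (1.08) and Nfkb1 (1.22) farthest. Sec61a1, which encodes the channel for protein import into the ER, was at 139.2 to 145.4 CPM in WT replicates 1 and 2, 197.0 to 213.4 CPM in WT replicates 3 to 6 and 134.7 to 157.0 CPM in FI3KO. Psmb10, an immunoproteasome subunit, was at 18.6 to 19.6, 31.7 to 33.1 and 17.7 to 22.2 CPM in the same groups. The likeness rests on 4 WT libraries that stood high.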

How the data were processed

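Per the labels and the methods of the study, RNA was depleted of ribosomal RNA, made into cDNA libraries with no strand information and quantified by the authors against GENCODE transcripts (GRCm38) with Salmon 1.4.0 after trimming with fastp. The deposited tables give, for each of 118733 transcripts, the estimated count (NumReads), the TPM and the effective length. Transcripts were assigned to genes by identifier with the GENCODE M21 annotation (99.26% matched, the other 883 kept as genes of their own). Deposited estimated counts were summed per gene and rounded. CPM are these counts scaled by each library's total alone, without TMM. TPM as deposited were summed per gene. Libraries held from 21541334 to 40490283 reads.

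The study also used edgeR. Here each experiment was fitted separately with edgeR 4.0.16 in R 4.3.3 (TMM, filterByExpr, quasi-likelihood test), with Benjamini-Hochberg adjustment over all genes tested and a call at an adjusted p of at most 0.05. The knockout effect in replicates 3 to 6 was compared with that in replicates 1 and 2 by an interaction term. Tested on simulated data with 200 genes changed by 1.5 on the log2 scale, the FI3OE comparison recovered 98.5%, the FI3KO comparison 96.0% and the interaction 75.5%. False calls numbered 14, 8 and 2. The changed genes were drawn from those with higher counts, and no other difference between replicate sets was simulated. The largest change of the 10 genes in FI3OE was -0.43, so these rates do not give the power for smaller changes or low counts.

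The 10 genes, the marker lists, the replicate sets and the lists of other NF-kB genes were chosen with earlier results of these data known. Other genes are named by a written rule: 20 NF-kB genes set whatever their values, and the 5 with the nearest TRAP profile. Markers and genes named as exceptions were picked after their values were seen. Alternatives tried were DESeq2 (1.42.0), its size factors, other filters on low counts, a transcript length offset, 1 fit of all 18 libraries, the fold cutoff of the study, a replicate block, WT TRAP replicates 1 and 2 counted as 1 sample, and each library left out.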

Additional observations from a re-analysis of the deposited data

Results flagged for a closer look

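The knockout effect in TRAP RNA differed between replicates 3 to 6 and replicates 1 and 2 for 6 of the 10 genes, by edgeR's test of the difference itself. Of all 14978 genes tested, 11.9% were called in the same direction, toward a lower value in replicates 3 to 6, and 12.9% in the other. On the log2 scale the effect in replicates 3 to 6 minus that in replicates 1 and 2 was -1.14 for Nfkb2, -0.43 for Relb, -2.08 for Nfkbie, -1.11 for Tnfaip2, -1.36 for Tnfaip3 and -0.67 for Sod2. The Relb call did not hold with every single library left out, and its difference then ranged from -0.51 to -0.34. For Tnfaip3 the 2 effects had opposite signs and each passed its own test. WT replicates 1 and 2 held the Irf3-202 transcript (274.5 and 388.1 estimated reads), which was at 0 in every FI3KO library, as their WT label would have it. The labels give no batch that would separate these libraries, and a difference in handling and a difference between animals cannot be told apart here. All these tests count WT replicates 1 and 2, the closest pair of libraries, as 2 separate samples.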

How the results depend on the processing

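In FI3OE cultures 5 of the 10 genes were called. The count was 3 with the transcript length offset (Relb, Nfkbie and Tnfaip3), 0 with all 18 libraries in 1 fit and 0 with the fold cutoff of the study, and it ranged from 3 to 5 with single libraries left out. The fold change of Nfkb1 was -0.01 and that of Rela -0.01 with the length offset, and with single libraries left out they ranged from -0.00 to 0.04 for Nfkb1 (lowest without WT replicate 3) and from -0.00 to 0.07 for Rela (lowest without FI3OE replicate 2). In TRAP RNA 6 of the 10 were called, 3 with the fold cutoff of the study, 1 in replicates 1 and 2 alone and 6 to 6 with single libraries left out. In replicates 1 and 2 alone the fold changes of Nfkb1 (-0.02), Nfkbia (0.18), Nfkbie (0.09) and Tnfaip3 (0.76) had the opposite sign. The difference between the sets was called for 6 genes, and for 5 to 7 with single libraries left out. The causes of these changes were not tested. For the difference between the sets, leaving out replicate 1 or 2 left 1 library in that group, so the spread came from the other groups. Same-numbered libraries of the compared groups did not deviate together (correlations from -0.293 to 0.104), and with the replicate block the counts were 5 in FI3OE, 6 in FI3KO and 6 for the difference between the sets. Bcl3 and Nfkbie in FI3KO rest on few reads (19 to 53 per library), which limits their precision.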
